A study of Mus musculus with 1528 samples.

Results

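Among bone marrow-derived macrophages treated with IL4 and IL13, the cells described here were those with little mRNA of both Clec10a and Mgl2. They were chosen by the measured values of these 2 genes: a kept cell was a member when Clec10a and Mgl2 each stood below 100 CPM, the usual measure of a gene's count scaled to its library's total of gene fragments. Of 721 kept IL4+IL13 cells, 121 were members, out of 1524 wells with a known mouse, plate and treatment in the whole series. The cells they were set against were the 334 kept IL4+IL13 cells at 100 CPM or more of both genes. These 334 are called lectin-high cells here and the members lectin-low cells. A further 174 cells were low in Clec10a only and 92 were low in Mgl2 only.

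All cells came from wild-type mice labelled C57BL/6, C57BL/6J in the study's methods, and were grown from bone marrow in M-CSF, so that every group shared this growth factor. The macrophages of 2 mice received 10 ng/ml each of IL4 and IL13, alone or together with 10 ng/ml TNF, for 24 h, and single live cells were sorted into 384-well plates. Full-length single-cell RNA-seq without molecular identifiers was run on 4 plates, with mouse 1 on plates 2 and 3 and mouse 2 on plates 4 and 5. The deposited table gave raw counts of fragments per gene, and a cell was kept with at least 200000 gene fragments, at least 5000 genes found and at most 10% of fragments from mitochondrial genes. The treated macrophages are a culture model, and 2 mice limit every test below.

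IL4 and IL13 act on macrophages through receptors that share the IL4 receptor alpha chain and activate the transcription factor STAT6. The resulting state, called alternative or M2 activation, is known for the mannose receptor Mrc1, the resistin-like protein Retnla and the paired galactose-type C-type lectins. Clec10a and Mgl2, also named MGL1 and MGL2, are surface receptors that bind terminal galactose and N-acetylgalactosamine, and are common markers of this state in mouse.

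The 2 genes lie next to each other on the same strand. Mgl2 (ENSMUSG00000040950) was annotated at chr11:70130329-70137550 and Clec10a (ENSMUSG00000000318) at chr11:70156197-70170834 of mm10. They are close paralogs, and the fragments counted for either in a cell with few of both are uncertain for that reason; how far shared sequence moved the counts was not tested. The RefSeq promoter window of Mgl2 (GRCm38.p6, chr11:70130107-70130406, plus strand, 250 bases before to 50 after the start) is shown because this gene chose the cells. No capitals appear in it, since neither TTCNNNNGAA, the spacing known for STAT6, nor TTCNNNGAA was found on either strand.
Mgl2: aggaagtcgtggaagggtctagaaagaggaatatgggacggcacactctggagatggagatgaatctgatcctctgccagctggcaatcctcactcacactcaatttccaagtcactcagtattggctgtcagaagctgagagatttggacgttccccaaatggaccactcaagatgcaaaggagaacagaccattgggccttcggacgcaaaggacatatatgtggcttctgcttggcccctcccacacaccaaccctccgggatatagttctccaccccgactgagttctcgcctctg
Of all 32851 promoter windows of this length, 6.95% held TTCNNNNGAA and 8.30% held TTCNNNGAA. In the windows of IL4 target genes, TTCNNNNGAA was in 6 of 29. A match describes letters only.

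The members formed a like share of the cells of each plate. They were 15.5% of kept IL4+IL13 cells on plate 2, 17.7% on plate 3, 17.8% on plate 4 and 16.1% on plate 5. By mouse the share was 16.6% (60 of 362 cells, exact Clopper-Pearson 95% interval 12.9% to 20.8%) and 17% (61 of 359, 13.3% to 21.3%). The intervals cover counting error only. In all, 295 kept cells were low in Clec10a and 213 in Mgl2. In IL4+IL13+TNF cells the same rule took 340 of 718 cells, 50.7% in mouse 1 and 43.9% in mouse 2.

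The values of the 2 genes that set the classes are a description. Among members Clec10a ran from 0 to 92.3 CPM with a median of 3.91, and Mgl2 from 0 to 96.3 CPM with a median of 6.29. Of the 121 members, 29 had no Clec10a fragment, 13 no Mgl2 fragment and 5 neither. Most members were far from the threshold: 95 had both genes under 50 CPM. Just inside it, 7 members had either gene at 90 CPM or more, the highest at 96.3. Just outside it, 9 lectin-high cells had either gene under 110 CPM, the lowest at 102. The plot of Clec10a against Mgl2 shows that each plate held all 4 classes.

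**Figure D1:**
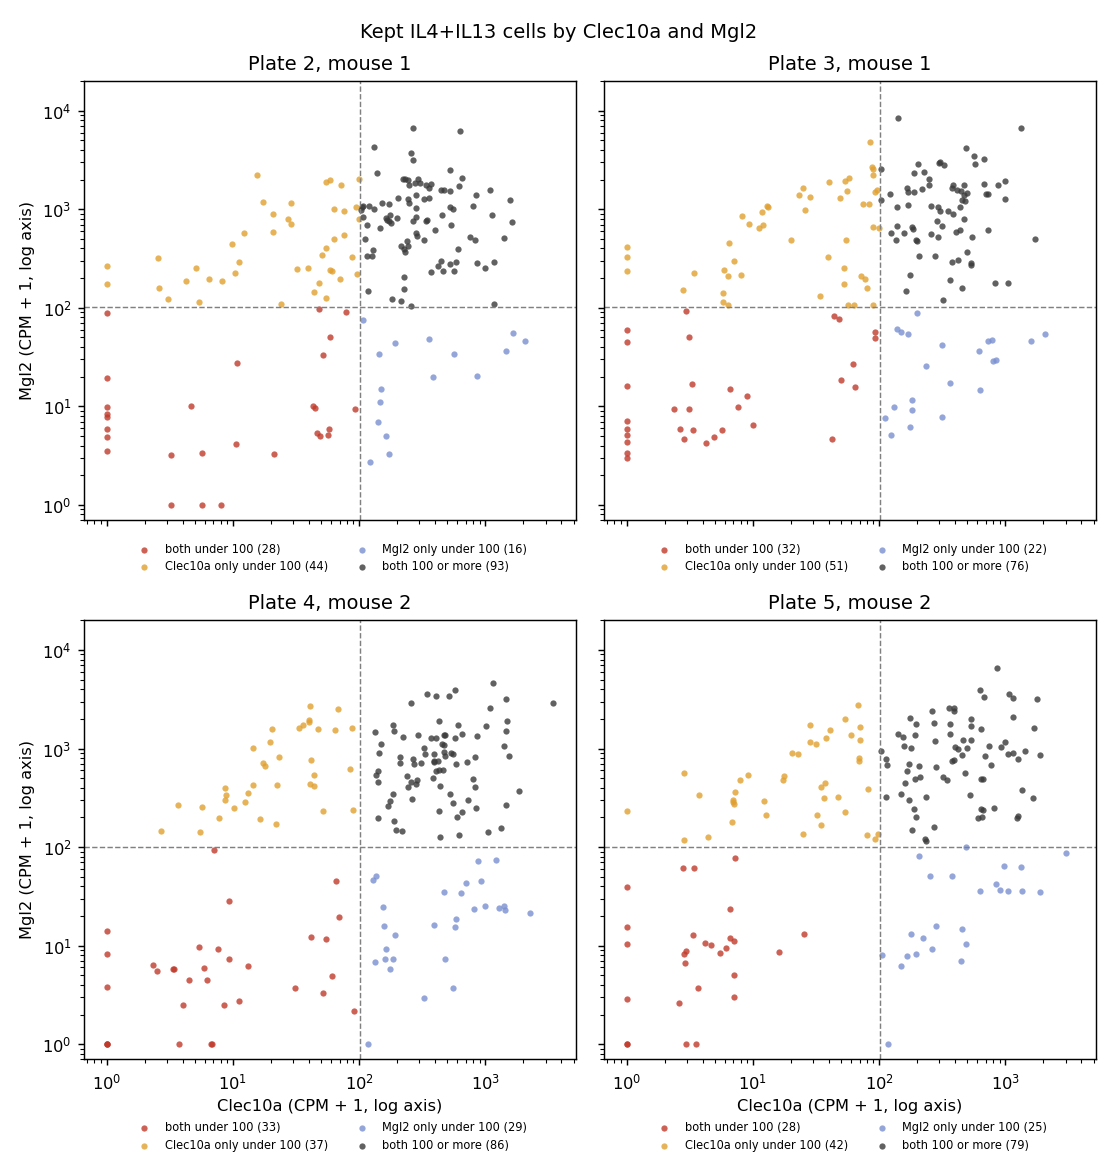
Clec10a (horizontal) against Mgl2 (vertical), both as CPM + 1 on log axes, in each kept IL4+IL13 cell, 1 panel per plate. Dashed lines mark the threshold of 100 CPM, and the 28, 32, 33 and 28 members of plates 2 to 5 fill the lower left of each panel.

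Genes beside the pair did not separate the classes detectably. Of 17 other annotated genes within 120 kb, 7 had enough fragments to be tested and none reached an unadjusted p of 0.05 by edgeR. Of all 16539 genes 1609 did, so the absence among 7 says little. Rnasek averaged only 1.88 CPM per lectin-low and 2.25 CPM per lectin-high cell, and Gm12311 and 0610010K14Rik averaged less. Dvl2, a Wnt signal adaptor, averaged 18.9 CPM per lectin-low and 16.6 CPM per lectin-high cell. Slc16a13, of the monocarboxylate transporter family, averaged 9.57 and 6.92 CPM. The sister lectin genes Asgr1 and Asgr2, subunits of the liver asialoglycoprotein receptor, had no fragment in any lectin-low cell and averaged 0.0202 and 0.692 CPM in lectin-high cells.

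Depth was alike in both classes. Median fragments per cell on plates 2 to 5 ran from 450844 to 510628 in lectin-low cells and from 464588 to 490879 in lectin-high cells, so a member had low counts of the 2 genes at ordinary depth. Median genes found ran from 7403 to 7802 against 7364 to 8184. Fragments per spike-in fragment, a measure of RNA per cell, had medians of 2101 in lectin-low and 2272 in lectin-high cells of mouse 1, and of 1677 and 1388 in mouse 2, so the order differed between the mice. Median mitochondrial shares were 3.13% to 4.32% against 3.02% to 4.08%. The kept IL4+IL13 cells lay in rows A to H of the plates. Members were found in each of these rows, from 11% of kept cells in row C to 26.1% in row D. No 2 wells had identical counts. A lectin-high cell on plate 3 had 6122892 fragments, the most of any kept cell, and the mean CPM per cell, which weights cells equally, was therefore computed beside the sums.

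The members were macrophages by their markers. Adgre1, the F4/80 antigen, was at 963 and 681 CPM in the summed lectin-low cells of mouse 1 and mouse 2, against 898 and 669 in the lectin-high sums. Csf1r, the M-CSF receptor, was at 743 and 1159 against 836 and 1286 CPM. Lyz2, lysozyme of myeloid cells, was higher in the members, at 15968 and 17362 against 8572 and 10256 CPM (log2 fold change 0.82 ± 0.05 SE). Markers of other cells stood at or near 0 in most cells. Granulocyte, mast cell, lymphocyte, stromal and erythroid lists had a median summed level of 0 CPM per cell in both classes, with highest cells at 188, 51.0, 18.2, 85.6 and 42.1 CPM among members and at 128, 51.6, 7.97, 281 and 28.0 CPM among lectin-high cells. The dendritic cell list had medians of 10.2 and 13 CPM and the monocyte list of 1.5 and 1.65 CPM, with highest members at 208 and 334 CPM and highest lectin-high cells at 499 and 1093 CPM. The osteoclast list, which shares Ctsk and Dcstamp with lipid-handling macrophages, had medians of 53.2 and 40.1 CPM and reached 3587 and 4370 CPM. The part of these markers in the differences below was not tested.

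Single markers of these lists were low as well. S100a8, a granulocyte protein, was at 0.476 and 6.34 CPM in lectin-low sums against 0.0108 and 1.11 CPM, with a log2 fold change of 3.46 ± 0.95 that rests on very few fragments. Gata2, Trac, Acta2 and Col3a1 were all under 2 CPM in every sum. Ccr2, the chemokine receptor of monocytes, was at 0.183 and 10.3 against 12.6 and 28.5 CPM. Vcan was at 0.11 and 4.12 against 3.41 and 6.36 CPM. Of 6 dendritic cell genes tested, 2 were lower on 4 of 4 plates (33.3%, against 12.4% of all genes) and 1 higher (16.7%, against 8.54%). The dendritic cell list had a median log2 fold change of -1.37, which ran the same way as the MHC class II genes below. Its most abundant genes did not show that size. Flt3 was at 8.46 and 7.42 against 6.71 and 6.85 CPM, and Batf3 at 12.7 and 17.4 against 14.6 and 34.0 CPM. Nfatc1, an osteoclast regulator that macrophages also use, was at 38.8 and 37.9 against 44.7 and 62.0 CPM.

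To ask what else differed between the classes, fragments were summed over the cells of each mouse and class, and edgeR's quasi-likelihood test was applied to the 4 sums, the mouse being a block. In a sum, fewer cells with an mRNA and less mRNA per cell cannot be told apart. Leaving out the 2 genes of the rule, 0 of 16539 genes passed an adjusted p of 0.05 (0.0% of the genes tested), while 1609 had an unadjusted p under 0.05. Summed per plate with the plate as a block, 3 of 15193 genes passed (0.0197%): Lgals3 and Fth1 were higher in the members and Pclaf was lower. With plate 4 left out 1 gene passed, and with plate 2, 3 or 5 left out 0 did. Plates of 1 mouse share its culture, so the plates are not independent replicates. By edgeR with the mouse as a block, Lgals3, Fth1 and Pclaf each had an adjusted p of 0.25. Without the mouse block edgeR called 0 genes, with 955 at an unadjusted p under 0.05. DESeq2 with the same mouse block called 383 genes lower (2.56%) and 278 higher (1.86%). As a plain measure of repetition, 12.4% of all genes tested were lower in the members on 4 of 4 plates and 8.54% were higher on 4 of 4. The median log2 fold change over all genes was -0.01. Fold changes below are of lectin-low over lectin-high sums from the fit with the mouse as a block, with SE and an unadjusted p. None passed adjustment there, and each is read beside its values per mouse or plate.

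Among the lists with 5 or more genes tested, the median log2 fold change was highest for the Gpnmb and lipid list, genes of lipid-handling macrophages, and lowest for MHC class II and G2/M genes. Of 15 genes in the Gpnmb and lipid list, all tested, 11 were higher in the members on 4 of 4 plates, against 8.54% of all genes. By edgeR, 13 of the 15 were higher at an unadjusted p under 0.05, against 716 of all 16539 genes. The list's median log2 fold change was 0.85.

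Gpnmb (chr6:49036546-49070929), a transmembrane glycoprotein of lysosome-rich macrophages, was at 9204, 8621, 6456 and 9409 CPM in lectin-low sums of plates 2 to 5 and at 2745, 2939, 3197 and 3217 CPM in lectin-high sums. Every lectin-low plate value lay above every lectin-high one (log2 fold change 1.47 ± 0.11, p = 0.000245 by edgeR). The share of all genes of which this held was not counted. Cell by cell the spread was wide, from 68.7 to 25656 CPM among members with a median of 6298, against 20.4 to 14756 with a median of 2874. Cells low in 1 gene only lay between: Gpnmb averaged 4696 and 4782 CPM per cell in mouse 1 and mouse 2 in cells low in Clec10a only, and 3175 and 3901 CPM in cells low in Mgl2 only.

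Fabp4, a fatty acid carrier of macrophages and fat cells, had the largest fold change of the list. It was at 379, 339.9, 194 and 789.6 CPM in lectin-low sums of plates 2 to 5 against 93.4, 56.6, 119 and 96.3 CPM (log2 fold change 2.16 ± 0.12). Its median member had 66.0 CPM and its highest 8040.0 CPM, so part of the sum came from few cells. Fabp5, its relative, was at 555 and 376 CPM by mouse against 212 and 202. Atp6v0d2, a subunit of the proton pump that acidifies lysosomes and a known IL4 target, was at 1163 and 988 against 281 and 303 CPM (log2 fold change 1.87 ± 0.13). Lpl, lipoprotein lipase, was at 3179.9 and 2452 against 1829 and 1286 CPM (0.85 ± 0.07). Cd9, a tetraspanin, was at 2545 and 2131 against 1208 and 1343 CPM (0.86 ± 0.12).

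Lgals3 (chr14:47367751-47386160) encodes galectin-3, itself a galactose-binding lectin but a soluble one. It was at 17390.2, 17086, 12847 and 16367 CPM in lectin-low sums of plates 2 to 5 and at 12872, 12189, 9137 and 11101 CPM in lectin-high sums. The fold was small and steady (log2 0.49 ± 0.04). The edgeR adjusted p was 0.034 in the fit on plate sums and 0.25 with the mouse as a block. Ctsk and Mmp12, 2 secreted proteases, were higher on 3 of 4 plates only. Dcstamp, a cell fusion gene, was at 5.64 and 0.425 CPM against 7.30 and 12.2 CPM.

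**Figure D2:**
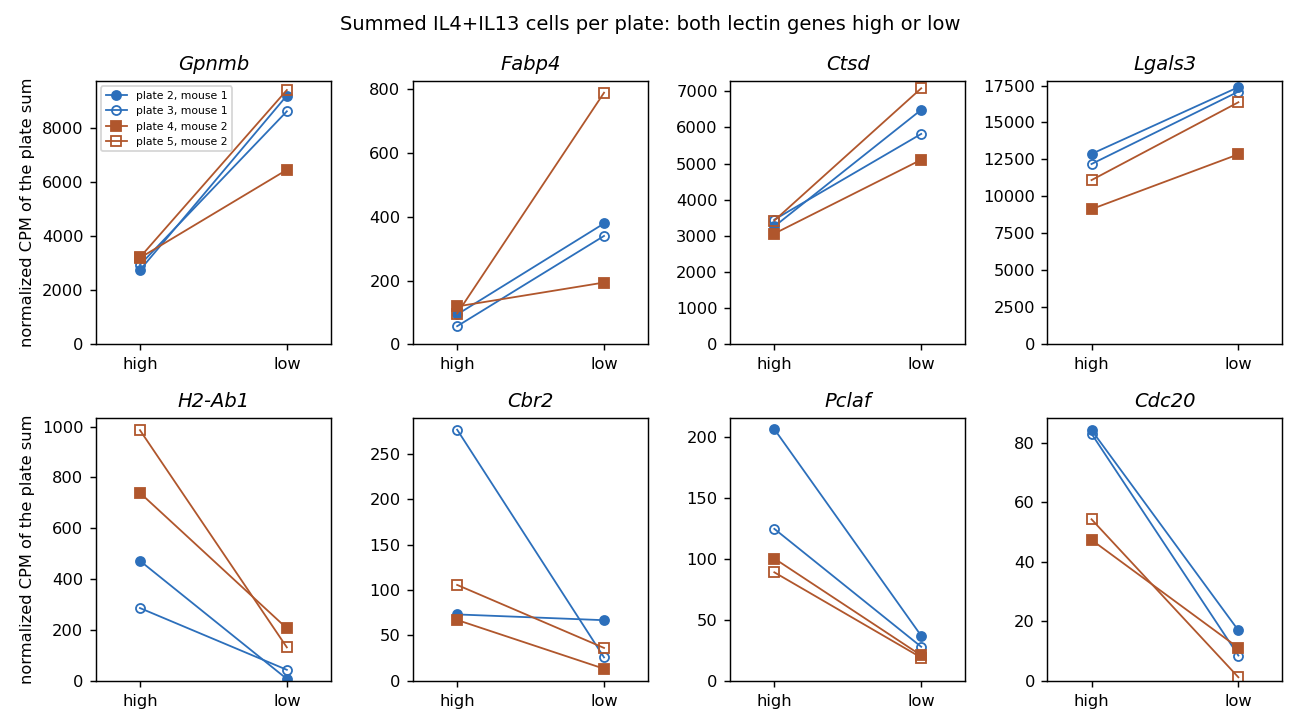
Normalized CPM (vertical, from 0) of 8 genes in the summed lectin-high and lectin-low IL4+IL13 cells of each plate, with 1 line per plate. Gpnmb, Fabp4, Ctsd and Lgals3 are higher in lectin-low cells on every line, and H2-Ab1, Cbr2, Pclaf and Cdc20 are lower, Cbr2 only slightly on plate 2 (66.8 against 73.2 CPM).

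Lysosomal genes were higher along with the Gpnmb list. Of 10 tested, 6 were higher on 4 of 4 plates (60%, against 8.54% of all genes) and none lower. The median log2 fold change was 0.31. Ctsd, cathepsin D, an aspartic protease, was at 6172 and 5959 CPM in the 2 mice against 3312 and 3206 (log2 fold change 0.88 ± 0.05). Ctsl was at 3313 and 3216 against 1931 and 1393 CPM. The most abundant members of the list had smaller folds: Ctsb was at 16842 and 13088 against 11469 and 10812 CPM, and Ctss at 10519.8 and 9702 against 6406 and 6642 CPM. Ctsz was at 3602 and 2544 against 2295 and 2278 CPM. The Ctsd promoter window is shown because it alone of the list's windows held TCACGTGA, a palindrome known from lysosomal genes, which stands in capitals (GRCm38.p6, chr7:142387778-142388077, minus strand).
Ctsd: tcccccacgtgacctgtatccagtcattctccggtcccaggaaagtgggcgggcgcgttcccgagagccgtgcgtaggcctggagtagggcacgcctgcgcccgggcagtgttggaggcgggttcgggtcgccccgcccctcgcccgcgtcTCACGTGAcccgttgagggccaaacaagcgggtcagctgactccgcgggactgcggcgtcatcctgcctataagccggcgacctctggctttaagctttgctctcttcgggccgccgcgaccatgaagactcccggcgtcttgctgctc
TCACGTGA was in 0.974% of all promoter windows, in 1 of 8 windows of the lysosome list and in 0 of 12 of the Gpnmb list.

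Of 15 macrophage core genes tested, 5 were higher on 4 of 4 plates (33.3%, against 8.54% of all genes) and 2 lower (13.3%, against 12.4%), and the median was 0.05. Besides Lyz2 and Ctsd, Cd68, a lysosomal glycoprotein, was at 1823 and 1649.6 against 1229 and 1259.8 CPM, and Tyrobp, the DAP12 adaptor, at 2021 and 2204 against 1392 and 1681 CPM. Fth1 (chr19:9980598-9985098), the ferritin heavy chain that stores iron, was the most abundant of the genes that passed in the plate sums. It was at 49486.5, 46168, 42434 and 44826 CPM in lectin-low sums of plates 2 to 5 against 33951, 30382, 26442 and 28082 CPM (log2 fold change 0.63 ± 0.04). The edgeR adjusted p of Fth1 was 0.0149 on plate sums and 0.25 with the mouse as a block. Tfrc, the transferrin receptor that brings iron in, was lower, at 131 and 154 against 387 and 386 CPM (-1.45 ± 0.12), though by little on plate 2 (151 against 162 CPM).

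Cell division genes were lower in lectin-low cells. Of 18 G2/M genes, 18 were lower on 4 of 4 plates, against 12.4% of all genes, with a median log2 fold change of -1.92. Of 18 S phase genes 11 were lower on 4 of 4 plates, with a median of -1.45. Cdc20, which activates the anaphase-promoting complex, was at 17, 8.52, 11.1 and 1.22 CPM in lectin-low sums of plates 2 to 5 against 84.3, 83.1, 47.4 and 54.3 CPM (-2.80 ± 0.21). Ube2c, the ubiquitin-conjugating enzyme of that complex, was at 29.7 and 33.7 CPM by mouse against 157 and 144 (-2.26 ± 0.16). Top2a, topoisomerase II alpha, was at 38.4 and 41.6 against 163 and 159 CPM, and cyclin Ccnb2 at 44.7 and 68.1 against 242 and 199 CPM. The plate values of the classes did not overlap for these 4 genes, of which Cdc20 and Ube2c were chosen after their values were seen. How many of all genes were without overlap was not counted, so how unusual this is cannot be said.

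Among S phase genes, Rrm1, a subunit of ribonucleotide reductase, was at 43.7 and 20.3 against 138 and 66.0 CPM (-1.69 ± 0.15). Mcm6 of the replicative helicase was at 91.4 and 40.9 against 173 and 77.4 CPM. Pcna, the sliding clamp also used in DNA repair, was an exception, at 242 and 170.2 against 234 and 137 CPM. Pclaf (chr9:65890237-65903266), a PCNA-binding factor of replicating cells outside the lists, was at 37.0, 28.0, 20.9 and 19.1 CPM in lectin-low sums of plates 2 to 5 against 206, 125, 100.3 and 89.0 CPM (-2.30 ± 0.15). The edgeR adjusted p of Pclaf was 0.02 on plate sums and 0.25 with the mouse as a block. Spc24, Hmmr and Smc2, mitotic genes chosen after their values were seen, were lower too, with log2 fold changes of -2.97, -2.04 and -1.64.

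The promoters of Cdc20 and Ube2c are shown because mitotic genes are known for a CHR element, TTTGAA, near CCAAT boxes, and the letters of both, on either strand, are in capitals. Cdc20 lies at chr4:118437294-118437593 on the minus strand and Ube2c at chr2:164769679-164769978 on the plus strand (RefSeq, GRCm38.p6).
Cdc20: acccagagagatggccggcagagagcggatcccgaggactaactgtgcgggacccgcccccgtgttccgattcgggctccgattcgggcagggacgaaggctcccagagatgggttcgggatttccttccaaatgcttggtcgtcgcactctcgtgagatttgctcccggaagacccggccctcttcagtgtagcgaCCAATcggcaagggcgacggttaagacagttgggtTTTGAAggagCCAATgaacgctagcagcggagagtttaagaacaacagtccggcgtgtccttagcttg
Ube2c: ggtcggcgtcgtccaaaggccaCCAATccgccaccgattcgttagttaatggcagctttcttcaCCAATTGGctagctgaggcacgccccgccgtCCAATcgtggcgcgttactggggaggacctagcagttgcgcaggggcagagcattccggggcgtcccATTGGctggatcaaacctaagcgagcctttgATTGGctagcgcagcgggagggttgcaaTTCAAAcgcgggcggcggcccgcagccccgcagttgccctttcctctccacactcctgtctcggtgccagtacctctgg
TTTGAA was in 10 of 15 windows of G2/M genes against 17.9% of all windows, and CCAAT in 13 of 15 against 37.4%. In S phase windows TTTGAA was in 2 of 17 and CCAAT in 13 of 17. For 15 of the 18 genes of each list a window was given.

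The summed CPM of the S and G2/M lists showed how many cells carried this program. A cell at 1000 CPM or more is called cycling here, a limit chosen after the data were seen. Of the 121 members 21 were cycling, or 17.4% (95% interval 11.1% to 25.3%), against 175 of 334 lectin-high cells, or 52.4% (46.9% to 57.9%). By plate 2 to 5 the share was 21.4%, 18.8%, 15.2% and 14.3% in lectin-low cells and 65.6%, 61.8%, 43.0% and 38.0% in lectin-high cells. The classes did not overlap, and mouse 1 was above mouse 2 in both. Cells low in Clec10a only (39.7%) and low in Mgl2 only (38.0%) lay between. When cycling cells were left out of both classes, the median of the G2/M list was -0.01 and that of the S list -0.23. These lists define the cells left out, so that their medians had to move toward 0.

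**Figure D3:**
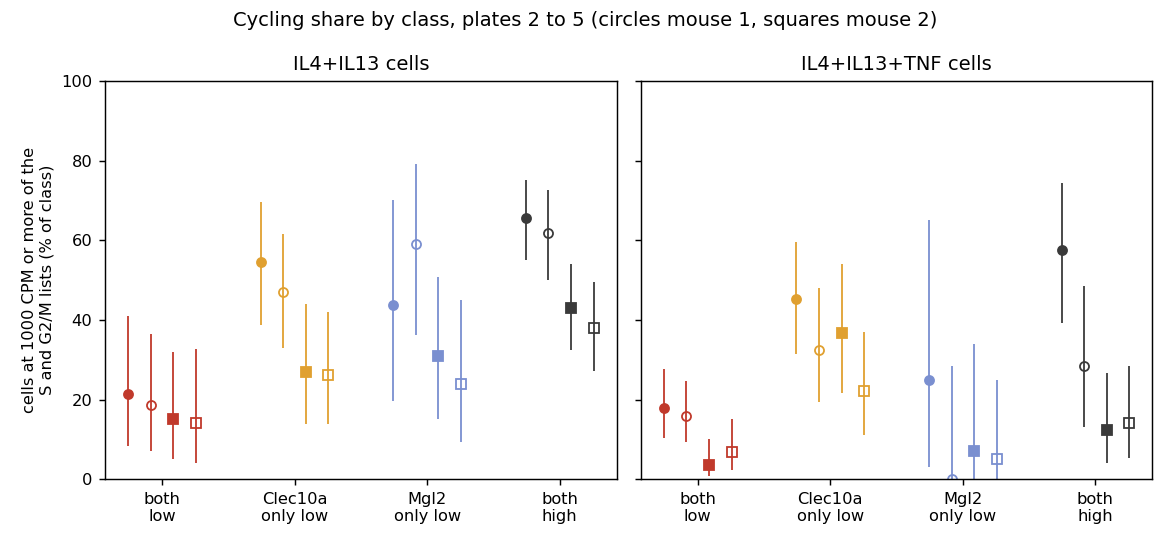
Share of cells at 1000 CPM or more of the summed S and G2/M lists (vertical, %) by class, for IL4+IL13 cells (left) and IL4+IL13+TNF cells (right). Each point is 1 plate, with its exact 95% interval (circles mouse 1, squares mouse 2). In IL4+IL13 cells the 4 lectin-low plates stand at 14.3% to 21.4% and the 4 lectin-high plates at 38.0% to 65.6%. In IL4+IL13+TNF cells the ranges overlap, at 3.61% to 17.9% and at 12.5% to 57.6%.

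The cycling share differed between the classes beside every list described here, so each list was also measured without cycling cells. Without cycling cells the Gpnmb list had a median log2 fold change of 0.76 and the lysosome list of 0.25. The MHC class II list had -1.69 and the C1q and Maf list -0.69. The chemokine list moved further, from -1.07 to -0.51. Cholesterol efflux moved from 0.25 to -0.13 and the macrophage core from 0.05 to -0.10, both with a change of sign. Fabp4 had 2.02, Gpnmb 1.42 and Fth1 0.60, and Pclaf had -2.85.

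**Figure D4:**
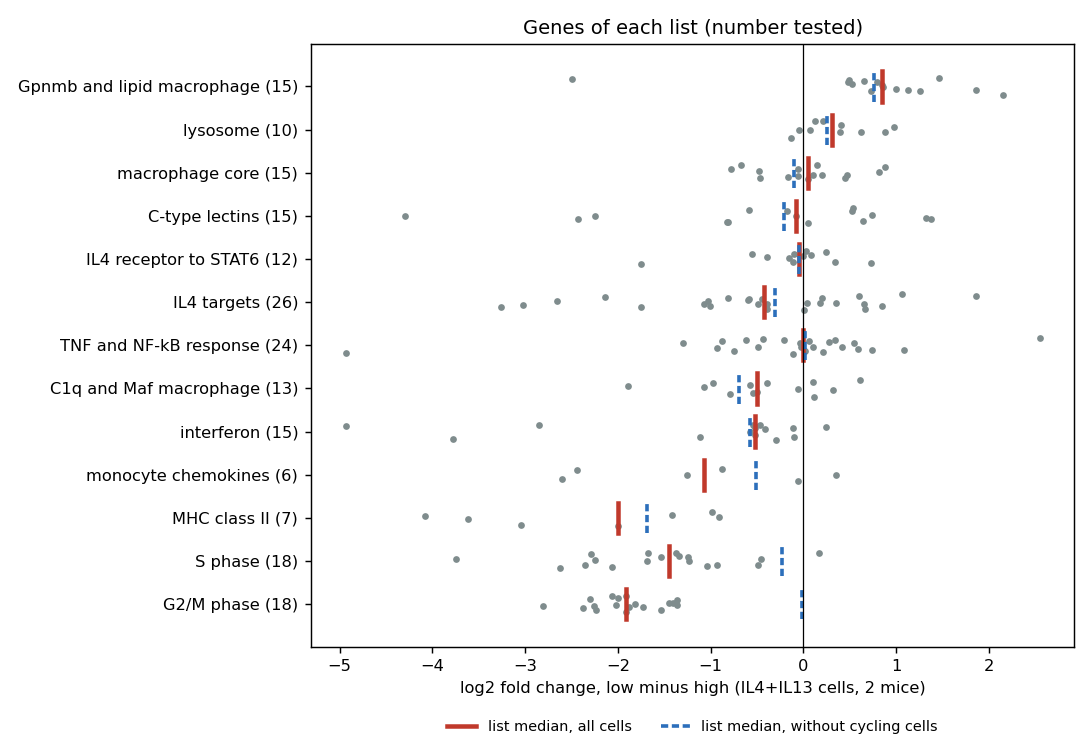
Log2 fold change of lectin-low over lectin-high sums (horizontal) for each tested gene of 13 lists, 1 grey point per gene. Solid bars mark the list median with all cells and dashed bars mark the median without cycling cells. The Gpnmb median is 0.85 with all cells and 0.76 without cycling cells. The G2/M and S lists define cycling cells, which fixes the direction of their shift.

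MHC class II genes, which present antigen to CD4+ T cells, were lower in lectin-low sums. Of 7 tested, 6 were lower on 4 of 4 plates (85.7%, against 12.4% of all genes), with a median log2 fold change of -2.00. H2-Ab1 was at 7.87, 43.6, 207 and 132 CPM in lectin-low sums of plates 2 to 5 against 472, 286, 739 and 986 CPM (-3.04 ± 0.44). H2-Aa was at 12.2 and 141 CPM by mouse against 362 and 747, and Cd74, the invariant chain, at 58.8 and 148 against 289 and 473 CPM. H2-DMa, which loads peptide, was at 51.3 and 83.0 against 129 and 230.3 CPM. Levels were higher in mouse 2 than in mouse 1 within each class, and lectin-low cells had less in both mice.

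Most of this mRNA sat in few cells. Median H2-Ab1 was 9.90 CPM per lectin-low cell and 27.6 per lectin-high cell, while the highest cells had 2056 and 14187 CPM. The 5% of cells with the most H2-Ab1 held 68.2% of its summed CPM in lectin-low cells and 63.2% in lectin-high cells. A few cells thus set these sums. After thinning each cell to 200000 fragments, H2-Ab1 was found in 69.4% of members and 75.1% of lectin-high cells.

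Of 13 genes of C1q-high, Maf-type macrophages tested, 5 were lower on 4 of 4 plates, against 12.4% of all genes, and 1 was higher, with a median of -0.50. C1qb, a chain of the complement starter C1q, was at 1445 and 1141 CPM against 1863 and 1735, and C1qc at 327 and 363 against 440.3 and 561 CPM. The transcription factor Maf was at 99.3 and 139 against 201 and 203 CPM (-0.79 ± 0.17, and -1.24 without cycling cells). Cbr2, a carbonyl reductase of tissue macrophages, was at 66.8, 25.9, 13.4 and 36.3 CPM in lectin-low sums of plates 2 to 5 against 73.2, 277, 67.1 and 106 CPM (-1.89 ± 0.14). Pf4, a platelet chemokine that macrophages also make, was at 23.1 and 22.4 against 59.8 and 37.8 CPM. Selenop, a selenium carrier, did not hold one direction, at 1006 and 742 against 689.7 and 913 CPM.

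Chemokines of the Ccl2 type had 3 of 6 genes lower on 4 of 4 plates (50%, against 12.4% of all genes) and a median of -1.07. Ccl7 was at 419 and 64.8 against 1055 and 145 CPM, Ccl8 at 12.5 and 10.5 against 49.4 and 77.6, and Ccl12 at 7.07 and 7.0 against 50.5 and 35.8 CPM. The 2 most abundant genes of the list, Ccl6 and Ccl9, did not share this, with Ccl9 at 3495 and 3030.1 against 3726 and 3054 CPM and Ccl6 at 612 and 699 against 373 and 689 CPM. Interferon-induced genes had 6 of 15 lower on 4 of 4 plates (40%, against 12.4% of all genes) and none higher, with a median of -0.52. Ifit3 was at 42.8 and 12.9 against 80.4 and 31.9 CPM, Oasl2 at 229.7 and 181 against 335 and 252, and Usp18 at 135 and 64.8 against 207 and 85.5 CPM.

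The IL4 route to STAT6 did not separate the classes detectably. Of 12 receptor, kinase and feedback genes tested, 1 was higher on 4 of 4 plates (8.33%, against 8.54% of all genes) and 0 were lower. The median log2 fold change was -0.05. Stat6 itself was at 163 CPM in both mice in lectin-low sums and at 131 and 141 in lectin-high sums. Jak1, a kinase of the receptor, was at 162 and 193 against 147 and 201 CPM, and the phosphatase Ptpn6 at 257 and 217 against 242 and 201 CPM. Il4ra was low throughout, at 13.1 and 22.9 against 11.6 and 15.9 CPM.

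Of 26 IL4 target genes tested, 5 were lower on 4 of 4 plates (19.2%, against 12.4% of all genes). Higher on 4 of 4 plates were 3 (11.5%, against 8.54%), and both shares were near those of all genes. The list's median log2 fold change was -0.42, and -0.30 without cycling cells, against -0.01 over all genes. By edgeR, 3 of the 26 genes were lower and 4 higher at an unadjusted p under 0.05. Of all 16539 genes, 893 were lower and 716 higher at that p. Mrc1 was lower, at 913 and 918 against 1355 and 1372 CPM (-0.59 ± 0.08), as was the prostaglandin synthase Ptgs1, at 59.2 and 89.2 against 110 and 146 CPM. Egr2, a transcription factor of the IL4 response, was higher on 3 plates, at 75.3 and 110.4 against 43.4 and 58.0 CPM, as were Atp6v0d2 on all 4 plates and, on 3 plates, the elastase Mmp12 at 729 and 645 against 463 and 406 CPM. Arg1, arginase 1, was at 65.0 and 102 against 38.2 and 133 CPM.

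Of the M2 signature genes besides the 2 lectins, 1 of 4 was lower on 4 of 4 plates (25%, against 12.4% of all genes). Another 1 of 4 was higher (25%, against 8.54%), and with 4 genes these shares say little. The median log2 fold change of these 4 genes was -0.56, and -0.78 without cycling cells. Retnla was at 54.3 and 208 CPM in lectin-low sums against 60.0 and 814 CPM (-1.07 ± 0.50, p = 0.1 by edgeR), and was lower in members on 3 of 4 plates. Its fold change depended on the mouse, the plate and the fit: the log2 value was -0.15 without mouse 2 and -1.98 without mouse 1. On plate sums it was -1.86 with all plates, -2.98 without plate 4 and -0.79 without plate 5. Without cycling cells, by the fit with the mouse as a block, it was -3.88. The top 5% of cells held 95.3% of Retnla in lectin-low cells and 88.4% in lectin-high cells. Apoe, a lipid carrier, was higher, at 834, 348, 547 and 499 CPM on plates 2 to 5 against 128, 131, 212 and 206 CPM (1.75 ± 0.24). Il10 was at 2.67 and 5.07 against 12.7 and 2.19 CPM, opposite in the 2 mice (-0.53 ± 1.13).

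Of the 8 genes the study named as Type 1/2 examples, Mamdc2 was the 1 that was higher on 4 of 4 plates and Mrc1 the 1 that was lower. Each count was 12.5% of the list, near the 8.54% higher and 12.4% lower of all genes. Mamdc2 was at 21.6 and 36.9 CPM against 3.37 and 9.66 (2.29 ± 0.35), and was found in 19.8% of thinned lectin-low cells and 10.8% of lectin-high cells. The sulfotransferase gene Chst11 was at 6.15 and 7.91 against 1.90 and 0.245 CPM (3.29 ± 1.14, and 1.46 without mouse 2). Nes was at 3.26 and 2.62 against 1.73 and 0.339 CPM (1.90 ± 0.81, and 0.75 without mouse 2) and Gypc at 9.08 and 15.6 against 17.5 and 26.3 CPM (-0.86 ± 0.28). Kitl (0.25 ± 0.26) and Proz (-0.34 ± 0.54) were within their errors. Several of these genes were at a few CPM, where a handful of cells sets the sum.

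Other C-type lectins moved both ways. Of 15 tested, 4 were higher on 4 of 4 plates (26.7%, against 8.54% of all genes) and 3 lower (20%, against 12.4%). Clec7a, the beta-glucan receptor Dectin-1, was higher, at 514 and 712 against 149 and 388 CPM (1.32 ± 0.26, and 0.86 without mouse 1), and Clec12a, an inhibitory receptor, at 496 and 517 against 357 and 291 CPM. Clec4b1 was lower, at 5.71 and 11.4 against 33.0 and 56.7 CPM (-2.43 ± 0.25), and Clec4a1 at 54.5 and 48.6 against 76.4 and 105 CPM. The list's median was -0.08.

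Without TNF in the culture, the TNF and NF-kB response list had a median of -0.00 over 24 genes. On 4 of 4 plates 4 were lower (16.7%, against 12.4% of all genes) and 1 higher (4.17%, against 8.54%). Ccl3 was at 176 and 112 against 239 and 149 CPM and Ccl4 at 99.1 and 22.3 against 186 and 71.3 CPM. Tnfaip2 was at 169.8 and 325 against 133 and 231, and Cd40 at 16.6 and 17.3 against 31.4 and 30.4 CPM. Of 13 genes of TNF receptors and signalling, 2 were higher (15.4%, against 8.54%) and 1 lower (7.69%, against 12.4%) on 4 of 4 plates. The receptor Tnfrsf1b was at 196 and 329 against 129 and 243 CPM (0.51 ± 0.12), and Tnfrsf1a at 102 and 73.2 against 104 and 103 CPM.

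Among 25 transcription regulators 4 were higher (16%, against 8.54% of all genes) and 4 lower (16%, against 12.4%) on 4 of 4 plates. Irf8, a factor of myeloid identity, was at 153 and 165 against 94.8 and 120.1 CPM, and Zeb2 at 325 and 719 against 290.3 and 579 CPM. Most metabolic and stress lists lay close to the median of all genes: glycolysis at -0.10, cholesterol synthesis at 0.06, the integrated stress response at 0.02 and immediate early genes at 0.03. Of 12 glycolysis genes, 3 were higher on 4 of 4 plates (25%, against 8.54% of all genes) and 2 lower (16.7%, against 12.4%). Cholesterol efflux, which holds Apoe, was at 0.25, with 1 of 5 genes higher on 4 of 4 plates (20%) and 0 lower. In these lists, Pkm was at 955 and 779 against 979 and 862 CPM, Msmo1 at 468 and 281 against 423 and 285, Sc5d at 196 and 127 against 178 and 125, Abcg1 at 274 and 625 against 237 and 501, and Atf4 at 229.9 and 227 against 256 and 190.4 CPM. Fos, an immediate early gene, was at 410.2 and 377 against 376 and 609 CPM, and Atf3 at 447 and 403 against 351 and 262 CPM.

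Outside the lists, the genes with the smallest unadjusted p that kept 1 direction on 4 of 4 plates were picked after their values were seen. Anxa1, annexin A1 of resolving inflammation, was at 5404 and 3853 against 2232 and 1644 CPM (1.24 ± 0.06). Mfge8, which bridges dying cells to phagocytes, was at 176 and 257 against 41.3 and 52.1 CPM (2.19 ± 0.14), and Il7r, a cytokine receptor chain, at 229 and 415 against 89.9 and 146 CPM (1.42 ± 0.12). Axl, a receptor tyrosine kinase for dying cells, was lower, at 0.622 and 3.66 against 21.6 and 79.1 CPM (-4.73 ± 0.34).

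Fblim1, a filamin-binding adaptor, was at 113 and 143 against 42.8 and 48.9 CPM. Lower in the members were Ighm (40.5 and 33.8 against 159 and 175 CPM), Tgfbi (152 and 108 against 325 and 247), the claudin Cldn11 (10.2 and 9.71 against 54.5 and 74.2) and Ly6a (5.20 and 5.89 against 35.2 and 51.4 CPM). Klk1b11, at 16.2 and 21.3 against 80.7 and 174 CPM, belongs to a family of near-identical kallikrein genes, and its counts are uncertain for that reason. So are those of Cd63, at 1659 and 1476 against 960.1 and 831 CPM, since its sequence is nearly that of a processed copy, Cd63-ps.

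The members varied among themselves. Within each plate, a cell was placed among the top 25% of kept IL4+IL13 cells for a list by its summed CPM. For the Gpnmb list 74 of 121 members were there (61.2%; 65.0% in mouse 1 and 57.4% in mouse 2), against 39 of 334 lectin-high cells (11.7%), 29.9% of cells low in Clec10a only and 19.6% of those low in Mgl2 only. For the MHC class II list 15 members were there (12.4%) against 33.5% of lectin-high cells, and for the C1q and Maf list 14.9% against 28.4%. Of the members, 6 were both cycling and in the top 25% for the Gpnmb list, and 32 were neither.

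IL4+IL13+TNF cells were split by the same rule into 340 lectin-low and 143 lectin-high cells, none of them among the cells above. Of 16586 genes, 2 passed (0.0121%), Clu and Aldh1a2, both higher in the lectin-low class. Without the mouse block 0 genes passed, and the 2 rested on few cells: in mouse 1 a single cell held 81.7% of Clu and 99.9% of Aldh1a2 in that class. The Gpnmb list had a median log2 fold change of 0.88, with 12 of 15 genes higher on 4 of 4 plates against 11.2% of all genes. The G2/M list had -1.81, with 13 of 18 lower on 4 of 4 plates against 9.48%. Cycling cells were 11.5% of lectin-low and 26.6% of lectin-high cells there, and the lectin-low share was the lower one on each plate. Across plates the classes overlapped: lectin-low cells stood at 17.9% and 16% on plates 2 and 3, lectin-high cells at 12.5% and 14.3% on plates 4 and 5. Cells low in Clec10a only (34.6%) and low in Mgl2 only (7.55%) did not lie between. The C1q and Maf list had -0.93 and the chemokine list -1.64.

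Gpnmb had a log2 fold change of 1.16 there, Fth1 0.59, Lgals3 0.50 and Pclaf -1.70, against 1.47, 0.63, 0.49 and -2.30 in IL4+IL13 cells. MHC class II had a median of -0.43 and interferon-induced genes 0.37, against -2.00 and -0.52. The TNF and NF-kB response list had 0.35, with 8 of 24 genes higher on 4 of 4 plates, against -0.00 with 1 of 24. Of all genes, 11.2% in IL4+IL13+TNF cells and 8.54% in IL4+IL13 cells were higher on 4 of 4 plates. The Type 1/2 list had -0.94 over 7 genes, against -0.04 over 8. The difference of the contrast between treatments was tested gene by gene, and 0 of 17574 passed by edgeR (0.0%), with 898 at an unadjusted p under 0.05, and 0 passed on plate sums. By gene, the interaction had an unadjusted p of 0.00559 for H2-Ab1 and of 0.00161 for Cd74, each with an adjusted p of 0.92. Of 823 genes lower in lectin-low IL4+IL13 cells at an unadjusted p under 0.05, 76.9% were also lower in IL4+IL13+TNF cells, and of 661 higher ones 83.2% were also higher, where 49.3% and 50.7% of all 15853 genes tested in both were lower and higher. The cells of the 2 treatments came from the same mice and plates but are different cells.

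**Figure D5:**
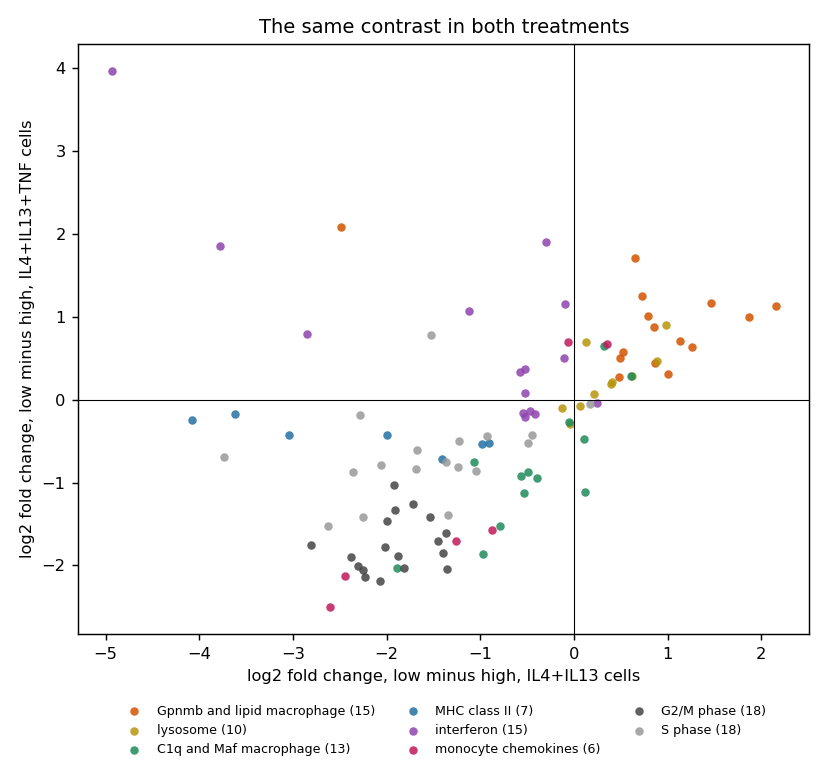
Log2 fold change of lectin-low over lectin-high sums in IL4+IL13 cells (horizontal) and in IL4+IL13+TNF cells (vertical) for the tested genes of 8 lists, 1 point per gene. Gpnmb list genes gather at the upper right, except Dcstamp at the upper left, and G2/M genes at the lower left. The 7 MHC class II genes lie from -4.08 to -0.91 horizontally and from -0.71 to -0.17 vertically.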

How the data were processed

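Single-cell RNA-seq counts of mouse macrophages were taken as deposited. The authors made them by aligning reads with gsnap to mm10 and counting uniquely mapped fragments per Ensembl gene with featureCounts 1.6.3, without strand; the count table held 55421 genes, and its 92 spike-in rows entered no total. A further 11 columns were not used, and 4 samples without a group entered no comparison. Kept cells had 200235 to 6122892 gene fragments (median 471020). Members, gene lists and tests were chosen with earlier results of these data known. Counts were summed per mouse and class and tested with edgeR 4.0.16 (TMM, quasi-likelihood, mouse as a block, Benjamini-Hochberg over all genes, threshold 0.05), in R 4.3.3. The mouse block rests on the shared animal, and deviations of same-mouse sums had r = 0.278 over 16541 genes. CPM of a sum is normalized by TMM, and CPM of a cell by its own gene fragments. PCR copies are counted, so intervals cover counting error only. Alternatives used DESeq2 1.42.0, limma 3.58.1, other thresholds and filters, plate sums and left-out plates, mice or cycling cells. The rule for named genes took the study's M2 signature and Type 1/2 genes, in each list up to 4 members past the threshold plus the 2 with the highest CPM, and up to 10 genes per direction past the threshold that moved alike on 4 of 4 plates at 20 CPM or more, filled from the plate sums. Since no list member passed, the other list members and the genes outside the lists were chosen after their values were seen. Fold changes of named genes with an unadjusted p under 0.05, or named by the study, were recomputed under the alternatives, and a part of them is printed. Thinning drew 200000 fragments per cell without replacement. RefSeq promoter windows (GRCm38.p6) were searched on both strands. Values of 2 list members are not reported here. The scripts were tested on simulated data.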

Additional observations from a re-analysis of the deposited data

Results flagged for a closer look

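Mamdc2 was higher in lectin-low than in lectin-high IL4+IL13 cells on 4 of 4 plates and lower on 4 of 4 plates in IL4+IL13+TNF cells, where its log2 fold change was -0.94 ± 0.43 SE. Its sums there were 1.6 and 3.86 CPM in lectin-low and 3.61 and 6.32 CPM in lectin-high cells. The edgeR test of the difference between treatments gave an unadjusted p of 0.00155 and an adjusted p of 0.92. With 2 mice per group no search for stray samples was made.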

How the results depend on the processing

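The number of genes past the threshold in IL4+IL13 cells was 0 by edgeR with the mouse as a block and 0 without the replicate block, with library size alone, without the gene filter, by limma, with classes at 50 CPM, with thinned cells, with cells kept by 3 median absolute deviations and, chosen after seeing the data, without cycling cells. It was 3 on plate sums with the plate as a block, 661 by DESeq2 with the mouse as a block and 1 with classes at 200 CPM, and 0 to 1 with each plate left out. In IL4+IL13+TNF cells the count of 2 was 0 without the replicate block, 27 on plate sums and 502 by DESeq2. The share of lectin-low cells, 16.8%, was 13.2% at 50 CPM, 27.9% at 200 CPM and 16.2% in thinned cells, and 16.57% to 16.99% with either mouse left out. Of 81 named genes whose fold change was recomputed, 73 kept its direction in every setting. With a plate, a mouse or the cycling cells left out, 36 moved by over 1.5 times on the log2 scale (24 with a plate or mouse, 19 with cycling cells). All were set against the fit with the mouse as a block. Values without a plate came from plate sums, and those without a mouse were plain log2 ratios. The counts thus include changes of method: Il10 was -0.53 in that fit and -2.00 on plate sums with all plates. Log2 fold changes turned for Il10 without mouse 1 (1.04), for Kitl at 50 CPM (-0.057), in thinned cells (-0.00723), without plate 5 (-0.12) and without mouse 2 (-0.07), for Proz at 200 CPM (0.22) and without mouse 2 (0.050), for Ctsk at 200 CPM (-0.10), and without cycling cells for Top2a (0.28), Hmmr (0.052), Rrm1 (0.58) and Cdc20 (1.26). With a replicate or plate left out in turn, values ran from -3.65 to 1.04 for Il10, from -0.12 to 0.73 for Kitl and from -1.75 to 0.050 for Proz. The cause was not tested, except that leaving out cycling cells removes by construction the cells with most mRNA of the lists that hold Top2a, Rrm1 and Cdc20. Hmmr is in neither of these lists. With 2 mice, adjusted p-values rest on few degrees of freedom, leaving out a mouse gives a value with no test, and plates of 1 mouse share its culture. Fragments without molecular identifiers limit genes at a few CPM.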
